A study of Mus musculus with 12 samples.

Results

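Mitochondrial fusion, fission and mitophagy were followed through 9 genes of the deposited counts table: the fusion genes Mfn1, Mfn2 and Opa1, the fission genes Dnm1l and Fis1, and the mitophagy genes Pink1, Bnip3, Bnip3l and Fundc1. They were chosen by gene symbol, with earlier results of these data known, and are 9 of 55401 genes in the table. RNA was sequenced from the left ventricle of 12 mouse samples in 4 groups of 3. The groups are T497A TAC, T497A sham, WT TAC and WT sham. T497A mice carry an alanine in place of threonine in protein kinase C alpha, the product of Prkca, and WT mice carry the normal gene. TAC is transverse aortic constriction, a narrowing of the aorta set by a 27-gauge needle, which raises the pressure the left ventricle has to work against. Sham mice had the operation without the constriction. All mice were operated on at 10 weeks of age and studied 1 week later, at 11 weeks. Whether each library is a separate animal is not stated in the labels, and p-values reflect the spread among libraries, which may be technical. Neither the sex of the mice nor whether 1 or both Prkca copies were mutant is stated in the labels.

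Mitochondria of heart muscle are joined and divided by large GTPases. Mitofusins tether and merge the outer membranes, OPA1 merges the inner membranes and shapes the cristae, and DRP1, the product of Dnm1l, constricts and divides the organelle after docking on outer membrane adaptors. Damaged mitochondria are removed by mitophagy, which is started either by the kinase PINK1, whose phosphorylation of ubiquitin activates the ligase parkin, or by receptors in the outer membrane that bind LC3 on the growing autophagosome.

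The promoters of Opa1, Pink1 and Bnip3 are shown because, among the 9 members, Opa1 gave the largest positive difference between the genotypes in the response to TAC, Pink1 the largest fall with TAC in WT, and Bnip3 the one called difference of negative sign. Each is 300 bases long, from 250 bases before to 50 after the start of transcription, read 5′ to 3′ along the gene from RefSeq on GRCm38.p6. The Opa1 window lies on the plus strand at chr16:29579084-29579383, the Pink1 window on the minus strand at chr4:138326247-138326546 and the Bnip3 window on the minus strand at chr7:138909457-138909756. Capitals in Opa1 mark 2 overlapping matches to GCATGCGC, a core of the site of nuclear respiratory factor 1, a regulator of mitochondrial genes. Capitals in Pink1 and Bnip3 mark ACGTG or GCGTG on either strand, the core of the hypoxia response element that hypoxia-inducible factors bind.
Opa1: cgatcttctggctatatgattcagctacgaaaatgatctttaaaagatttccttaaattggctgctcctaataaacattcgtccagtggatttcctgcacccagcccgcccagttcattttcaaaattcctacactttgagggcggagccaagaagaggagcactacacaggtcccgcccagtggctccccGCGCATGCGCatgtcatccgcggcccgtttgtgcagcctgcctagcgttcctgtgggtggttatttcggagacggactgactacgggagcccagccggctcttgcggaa
Pink1: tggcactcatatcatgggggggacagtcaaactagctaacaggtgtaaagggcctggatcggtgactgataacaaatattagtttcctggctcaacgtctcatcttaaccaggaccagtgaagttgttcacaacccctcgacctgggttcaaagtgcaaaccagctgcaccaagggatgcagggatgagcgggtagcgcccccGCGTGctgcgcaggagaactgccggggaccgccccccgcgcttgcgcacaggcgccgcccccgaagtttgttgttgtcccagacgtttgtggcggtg
Bnip3: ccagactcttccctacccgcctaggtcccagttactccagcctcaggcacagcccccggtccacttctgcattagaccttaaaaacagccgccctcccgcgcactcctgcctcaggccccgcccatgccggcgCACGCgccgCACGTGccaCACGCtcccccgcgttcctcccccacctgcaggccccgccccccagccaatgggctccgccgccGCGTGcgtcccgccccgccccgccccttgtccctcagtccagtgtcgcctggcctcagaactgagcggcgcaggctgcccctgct
RefSeq windows were matched for 8 of the 9 members, 12 windows in all. The hypoxia response core was found 5 times in Bnip3, at -117, -108, -107, -99 and -35 bases from the start site, with the matches at -108 and -107 overlapping on opposite strands. At least as many matches were in 1.66% of 32851 promoter windows of the same length, while 1 or more were in 43.8%. Pink1 held 1 match, at -47. Among the members not shown, each Mfn2 window held 2 matches to this core, each Dnm1l window 1, and window 1 of Fis1 held 1. The Opa1 matches lay at -59 and -57, and 2 or more matches to GCATGCGC were in 1.09% of windows, with 1 or more in 2.71%. AAGGTCA, a site of the oestrogen-related receptors, was in no member window and in 4.72% of all windows, and GTAAACA, a site of FOXO factors, was in no member window and in 3.65%. A match describes these letters and is not evidence of binding.

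Library totals lay between 58932759 and 72594085 counts, and 17699 genes were tested, all 9 members among them. A level is given as CPM, the count scaled to library size and by TMM, a factor per library computed from the bulk of its genes, and a gene was called at an adjusted p under 0.05 by edgeR's quasi-likelihood test with Benjamini-Hochberg adjustment over all genes tested. Fold changes are log2 values ± standard error from that fit. Prkca stood at 43.7 to 50.3 CPM in T497A TAC, 31.1 to 35.7 in T497A sham, 49.2 to 51.0 in WT TAC and 42.2 to 47.4 in WT sham, and gene counts cannot show a point mutation. The T497A sham libraries stand apart: Xist, the RNA of the silenced X chromosome, was at 160 to 215 CPM there and at 0.315 to 0.750 CPM in the other libraries, while the Y-linked gene Ddx3y was at 0.0999 to 0.396 CPM there and at 73.7 to 108 CPM elsewhere. Every comparison with T497A sham is thus also one between libraries without and with Y-linked transcripts, and sex and genotype or surgery cannot be told apart in it. Nor can a difference in sex and a mislabelled set of libraries be told apart, so values of T497A sham are those of the libraries labelled so. Of their 3 columns in the deposited counts, 2 write the genotype without its first letter. In WT TAC, library 2 stands apart from libraries 1 and 3, with 9.67% of its counts on mitochondrially encoded genes, against 13.4% and 14.7% in those 2. The share was 19.2 to 19.8% in T497A TAC, 16.0 to 17.3% in T497A sham and 19.1 to 20.99% in WT sham.

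The label cardiomyocyte was checked against markers of whole ventricle. All 8 ventricular cardiomyocyte markers were tested, and their summed level was 72350 to 77600 CPM in T497A TAC, 89510 to 93220 in T497A sham, 42240 to 50820 in WT TAC and 84010 to 91980 in WT sham. The 5 listed fibroblast genes summed to 839 to 1238, 793 to 926, 2659 to 5352 and 739 to 825 CPM in the same 4 groups, so the samples are ventricular tissue rather than pure cardiomyocytes. In such tissue, fewer cells of a type and less RNA per cell cannot be told apart.

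Pink1 and Mfn2 were the most abundant members per length of exon. In WT sham, Pink1 averaged 299.6 ± 7.55 CPM per kb and Mfn2 227 ± 8.07 (SD, n = 3), followed by Mfn1 at 73.3 ± 2.08. Opa1 (40.1 ± 0.696) lay just above Fis1 (39.1 ± 0.129) without overlap, and Bnip3 (31.5 ± 2.12) and Dnm1l (30.5 ± 1.25) overlapped. Bnip3l and Fundc1 were lowest at 12.3 ± 0.699 and 11.5 ± 0.835 CPM per kb, and their libraries overlapped too. The order of Pink1 and Mfn2 did not hold in every group. In WT TAC, Mfn2 spanned 121 to 147 CPM per kb and Pink1 109 to 132, so the 2 overlapped there, whereas in T497A TAC Pink1, at 210.5 to 247, lay above Mfn2, at 191 to 196.5.

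The fusion genes were lower in WT TAC than in every other group. Mfn1, an outer membrane mitofusin, stood at 374, 371 and 369.5 CPM in T497A TAC, 471, 465 and 470.5 in T497A sham, 291, 227 and 307 in WT TAC, and 458.5, 452 and 434 in WT sham. Mfn2, the mitofusin that also links mitochondria to the endoplasmic reticulum, stood at 1017, 992 and 1020 CPM in T497A TAC, 1097, 1125 and 961 in T497A sham, 737, 631 and 763 in WT TAC, and 1204, 1129 and 1199 in WT sham. Opa1, the inner membrane fusion GTPase, stood at 283, 275 and 289 CPM in T497A TAC, 268.5, 297 and 268 in T497A sham, 190, 159 and 201 in WT TAC, and 316, 322 and 311 in WT sham. All 3 genes were lower in each WT TAC library than in any other library, and WT TAC 2 was the lowest of all. The T497A TAC and T497A sham libraries overlapped for Mfn2 and Opa1 and did not for Mfn1. Overlap of groups was looked at for the members only. The share of all genes whose groups do not overlap was not counted, so such separations have no background beside them.

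The fission genes spanned a narrower range. Dnm1l, the dynamin-related GTPase that divides mitochondria, stood at 142, 137 and 136 CPM in T497A TAC, 161, 158.5 and 161.5 in T497A sham, 121, 113 and 126 in WT TAC, and 162, 164 and 151.5 in WT sham. Fis1, a small outer membrane protein of the fission site, stood at 64.0, 63.4 and 63.1 CPM in T497A TAC, 69.3, 70.9 and 74.8 in T497A sham, 57.1, 49.7 and 59.3 in WT TAC, and 67.3, 66.9 and 67.0 in WT sham. For both genes the WT TAC libraries were lowest, the T497A TAC libraries next, and the sham libraries highest, with no overlap between the TAC groups.

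The mitophagy genes followed no single pattern. Pink1 stood at 659.5, 581 and 562.5 CPM in T497A TAC, 975, 935.5 and 1008 in T497A sham, 343, 292 and 353.5 in WT TAC, and 777.5, 811 and 814 in WT sham. The 4 groups did not overlap for Pink1. Bnip3, an outer membrane mitophagy receptor induced by hypoxia, stood at 55.2, 56.6 and 54.8 CPM in T497A TAC, 115, 79.3 and 105 in T497A sham, 70.8, 69.3 and 69.7 in WT TAC, and 69.8, 76.7 and 67.5 in WT sham. It was lowest in T497A TAC and highest in T497A sham, where library 2 lay near the highest WT sham library, and the WT groups overlapped. Bnip3l, its close relative also called NIX, stood at 48.7, 43.2 and 43.5 CPM in T497A TAC, 43.5, 46.8 and 51.4 in T497A sham, 47.9, 40.9 and 48.5 in WT TAC, and 45.8, 50.6 and 46.2 in WT sham. All 4 groups overlapped for Bnip3l. Fundc1, a receptor that responds to loss of oxygen, stood at 24.1, 22.2 and 22.4 CPM in T497A TAC, 24.9, 26.9 and 26.7 in T497A sham, 20.5, 21.1 and 21.3 in WT TAC, and 29.2, 26.9 and 25.3 in WT sham. Each TAC group lay below both sham groups for Fundc1, and the T497A TAC libraries lay above the WT TAC libraries.

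**Figure D1:**
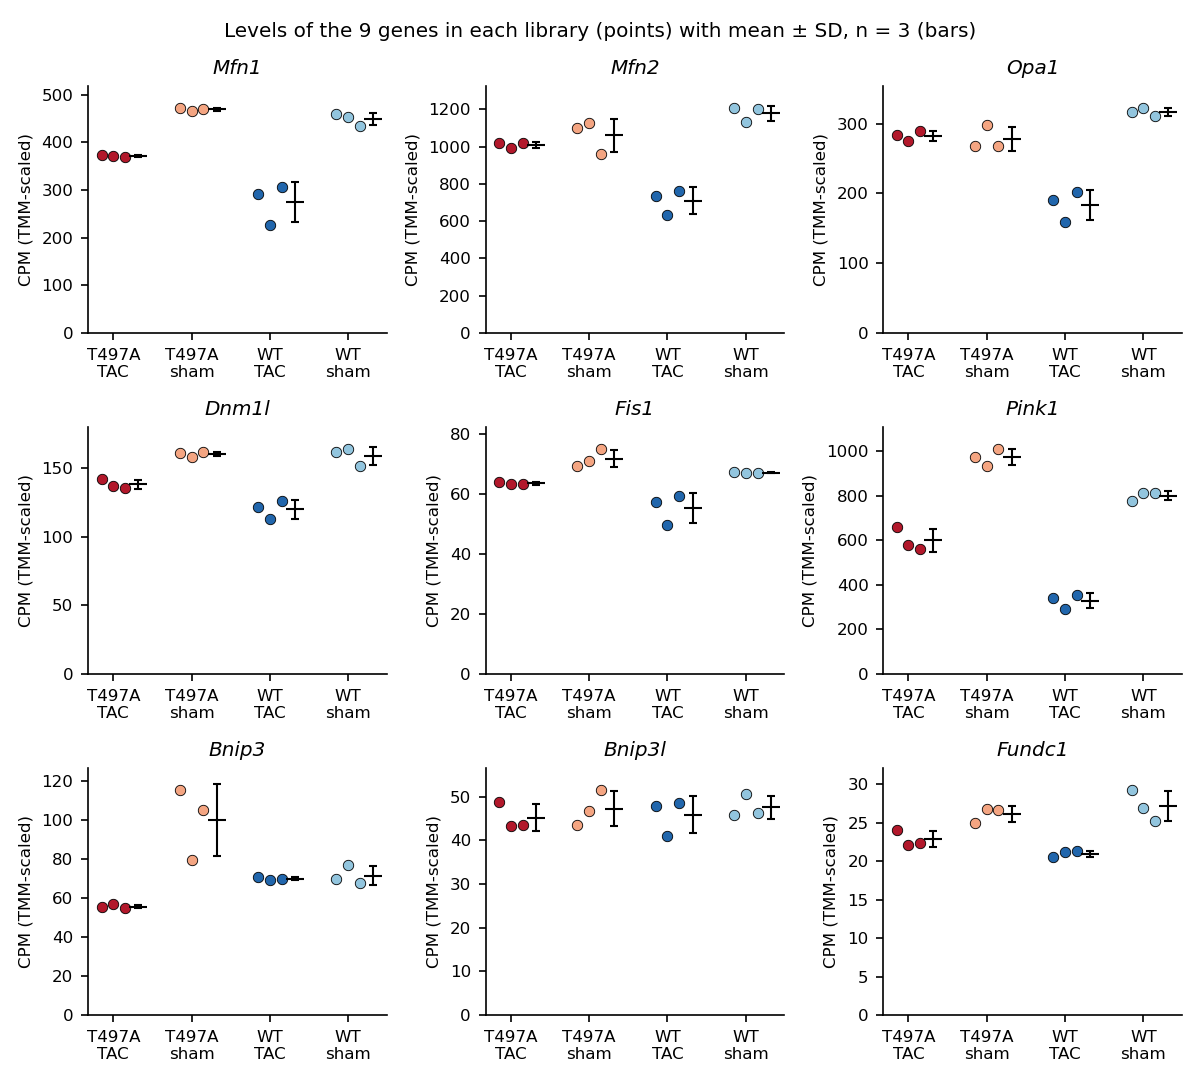
Level of each of the 9 members in CPM with TMM scaling (vertical axes, from 0) in the 12 libraries, by group. Points are libraries and bars are group means with their SD. Pink1 separates all 4 groups, with 935.5 to 1008 CPM in T497A sham and 292 to 353.5 CPM in WT TAC, while the groups overlap for Bnip3l.

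In the WT ventricle TAC lowered 7 of the 9 members and raised none. Pink1 fell most (-1.28 ± 0.080, edgeR adjusted p = 3.8e-08), to 0.411 times the level of WT sham. All 3 fusion genes fell, Opa1 (-0.78 ± 0.077, edgeR adjusted p = 1.4e-06), Mfn2 (-0.73 ± 0.080, 3.9e-06) and Mfn1 (-0.70 ± 0.086, 9.9e-06). Dnm1l (-0.40 ± 0.055, edgeR adjusted p = 2.8e-05), Fundc1 (-0.37 ± 0.069, 0.00042) and Fis1 (-0.28 ± 0.064, 0.0021) fell less. Bnip3 (-0.029 ± 0.10, edgeR adjusted p = 0.84) and Bnip3l (-0.054 ± 0.083, 0.62) were not called. Of all genes tested, 24% were called lower and 25.9% higher, so the share of members called lower exceeded the background. The median of the 9 members was -0.40, against 0.028 over all genes.

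The scaling sets part of this result. The TMM factors were 1.13 to 1.21 in WT TAC and 0.911 to 0.934 in WT sham, and using library totals in their place moved the median of all genes by 0.333. In WT TAC against WT sham 10.7% of all genes were then called lower and 47.8% higher. With library totals Pink1 (-0.95), Opa1 (-0.46), Mfn2 (-0.40) and Mfn1 (-0.38) were still called lower, with edgeR adjusted p of 1.1e-07 to 0.00034. The calls of Dnm1l (-0.073, edgeR adjusted p = 0.21) and Fundc1 (-0.037, 0.67) were lost, Fis1 changed sign (0.053, 0.42), and Bnip3 (0.30, 0.029) and Bnip3l (0.28, 0.0058) were called higher. Without WT TAC 2, which was lowest for 6 of the 7 members called, the 7 calls stood, with Pink1 at -1.20, Opa1 at -0.69, Mfn2 at -0.65 and Mfn1 at -0.58.

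**Figure D2:**
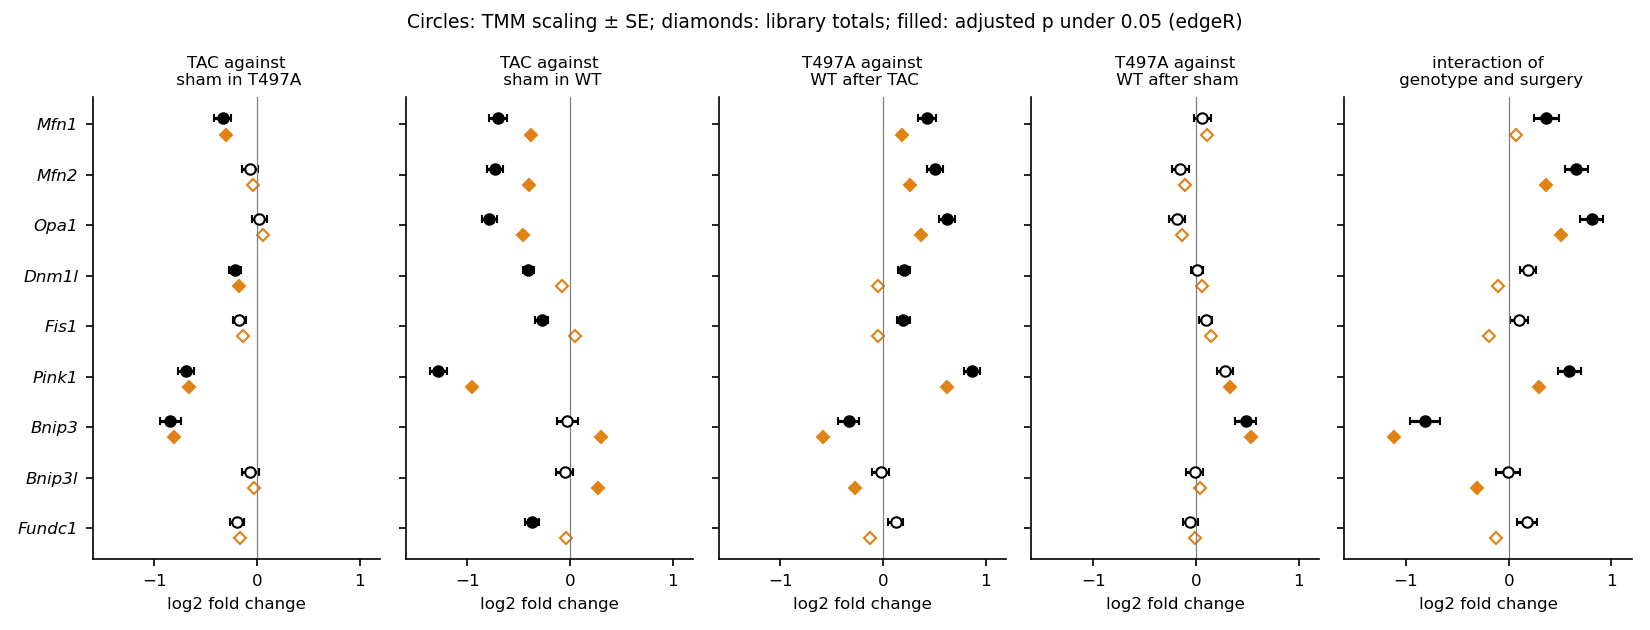
Log2 fold change of each member in the compared groups (horizontal axis) in 5 comparisons. Circles with bars are TMM-scaled values ± standard error, diamonds are values with library totals, and filled symbols were called by edgeR. With TMM, Pink1 lies furthest left for TAC against sham in WT, at -1.28, and Bnip3 furthest left for TAC against sham in T497A, at -0.85.

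In T497A TAC against T497A sham 4 members were called lower and none higher, where 11.4% of all genes were called lower and 12.9% higher. T497A sham alone lacks Y-linked transcripts, so surgery cannot be told apart from sex or mislabelling here. Bnip3 differed most (-0.85 ± 0.10, edgeR adjusted p = 7.1e-05), followed by Pink1 (-0.69 ± 0.080, 3.4e-05), Mfn1 (-0.34 ± 0.085, 0.011) and Dnm1l (-0.21 ± 0.055, 0.012). Mfn2 (-0.072 ± 0.080, edgeR adjusted p = 0.56) and Opa1 (0.023 ± 0.077, 0.87) were not called, nor were Fundc1 (-0.20 ± 0.069, 0.052), Fis1 (-0.17 ± 0.063, 0.060) and Bnip3l (-0.065 ± 0.083, 0.62). Fundc1 and Fis1 lay next to the threshold. Fundc1 was called in 8 of 21 alternatives, with edgeR, DESeq2 or limma adjusted p of 0.017 to 0.17 over all 21, and Fis1 in 7, with 0.011 to 0.20. Among left-out libraries, Fundc1 was called without WT sham 1, T497A sham 1, WT TAC 2 or T497A TAC 1 (edgeR adjusted p = 0.050, 0.050, 0.048 and 0.049), and Fis1 without WT TAC 2 or WT TAC 3 (0.014 and 0.050). Dnm1l lost its call without T497A TAC 2 (-0.21, edgeR adjusted p = 0.051).

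A second comparison set T497A TAC against WT sham, whose libraries match it in Y-linked transcripts but differ in genotype. There 4 members were called lower and none higher, where 3.9% of all genes were called lower and 6.12% higher. Pink1 was lower (-0.41 ± 0.079, edgeR adjusted p = 0.0057), as were Bnip3 (-0.36 ± 0.10, 0.040), Fundc1 (-0.25 ± 0.069, 0.036) and Dnm1l (-0.20 ± 0.055, 0.034). Mfn1 (-0.27 ± 0.085, edgeR adjusted p = 0.058), Mfn2 (-0.22 ± 0.080, 0.094) and Opa1 (-0.16 ± 0.077, 0.20) were not called. Pink1 was the one member called under all 22 alternatives. Leaving out single libraries gave 1 to 7 calls, with 7 without WT TAC 2, when Mfn1 (edgeR adjusted p = 0.00048), Mfn2 (0.012) and Opa1 (0.035) joined, and 1 without WT sham 1, WT sham 2, WT TAC 1, T497A TAC 2 or T497A TAC 3. With library totals 1.89% of all genes were called lower and 9.02% higher, and the calls of Dnm1l (-0.12, edgeR adjusted p = 0.14), Bnip3 (-0.28, 0.13) and Fundc1 (-0.17, 0.15) were lost, which left Pink1 (-0.33, 0.0088). WT TAC against T497A sham, the other crossed pair, gave 8 members lower, where 24.6% of genes were lower and 25.6% higher, with Pink1 at -1.56 ± 0.081 and Bnip3l not called. With library totals 5 members were lower and Bnip3l higher (0.24, edgeR adjusted p = 0.015), the calls of Fis1 (-0.090, 0.18), Bnip3 (-0.23, 0.090) and Fundc1 (-0.034, 0.71) were lost, and 12.4% of all genes were lower and 43.1% higher.

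After TAC, the T497A ventricle held more transcript of 6 members than the WT ventricle and less of Bnip3. Pink1 was 1.82 times as high (0.87 ± 0.080, edgeR adjusted p = 3.4e-06), Opa1 1.54 times (0.62 ± 0.077, 3.3e-05), Mfn2 1.42 times (0.51 ± 0.080, 0.00022) and Mfn1 1.35 times (0.43 ± 0.085, 0.0012). Dnm1l (0.20 ± 0.055, edgeR adjusted p = 0.0099) and Fis1 (0.20 ± 0.063, 0.025) were higher by less. Bnip3 was lower (-0.33 ± 0.10, edgeR adjusted p = 0.021), while Fundc1 (0.12 ± 0.069, 0.19) and Bnip3l (-0.021 ± 0.082, 0.87) were not called. Over all genes 17.8% were called higher and 17.9% lower. Neither group lacks Y-linked transcripts, and the count of 7 called members was the same when the T497A sham group was left out of the fit.

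The 4 largest of these differences held with library totals, which moved the median of all genes by -0.251 and gave 8.24% of all genes called higher and 38.8% lower: Pink1 0.62, Opa1 0.37, Mfn2 0.26 and Mfn1 0.19 (edgeR adjusted p of 1.4e-05 to 0.041). Dnm1l (-0.045, edgeR adjusted p = 0.47) and Fis1 (-0.050, 0.47) changed sign, and Bnip3 (-0.58, 0.00086) and Bnip3l (-0.27, 0.0093) were called lower. Fis1 also lost its call without WT TAC 2, T497A TAC 1 or T497A TAC 3 (edgeR adjusted p = 0.099, 0.063 and 0.053), and with only the 2 groups in the fit (0.205, 0.063). Bnip3 lost it without WT TAC 1 (edgeR adjusted p = 0.059), WT TAC 2 (0.059), T497A TAC 1 (0.060), T497A TAC 2 (0.058) or T497A TAC 3 (0.064), although its value stayed between -0.34 and -0.32.

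After sham surgery 1 member differed between the genotype groups by the test, a comparison in which sex and genotype cannot be told apart. Bnip3 was higher in T497A (0.49 ± 0.10, edgeR adjusted p = 0.013), where 2.99% of all genes were called higher and 2.8% lower. Its call was lost without WT sham 1, WT sham 3 or T497A sham 3 (edgeR adjusted p = 0.058, 0.065 and 0.055), and with only the 2 groups in the fit (0.098). Pink1 lay next to the threshold (0.28 ± 0.079, edgeR adjusted p = 0.052). It was called in 10 of 21 alternatives, with edgeR, DESeq2 or limma adjusted p of 0.0037 to 0.18 over all 21. These include the fits without WT TAC 2 (edgeR adjusted p = 0.0050), WT TAC 3 (0.039) or T497A TAC 1 (0.040). Opa1 (-0.19 ± 0.077, edgeR adjusted p = 0.19) was called without WT TAC 2 (0.026). The other members differed by -0.15 to 0.10 and were not called.

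The response to TAC was tested between the genotypes as an interaction, the log2 change in T497A minus that in WT. It was above 0 for Opa1 (0.81 ± 0.11, edgeR adjusted p = 0.00011), Mfn2 (0.66 ± 0.11, 0.00069), Pink1 (0.59 ± 0.11, 0.0015) and Mfn1 (0.37 ± 0.12, 0.034), and below 0 for Bnip3 (-0.82 ± 0.14, 0.00097). Of all genes, 15.3% were called above 0 and 14.2% below. Dnm1l (0.19 ± 0.078, edgeR adjusted p = 0.081), Fundc1 (0.17 ± 0.098, 0.20), Fis1 (0.10 ± 0.090, 0.43) and Bnip3l (-0.012 ± 0.12, 0.95) were not called. The 5 calls compare groups of which T497A sham alone lacks Y-linked transcripts. Dnm1l was called without WT TAC 3 (0.23, edgeR adjusted p = 0.043).

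Of these 5, Mfn1 lost its call most often, in 9 of 20 alternatives. Its interaction shrank to 0.072 (edgeR adjusted p = 0.60) with library totals and lost its call without WT sham 1 or 2 (0.073 and 0.067), T497A sham 1, 2 or 3 (0.052, 0.060 and 0.060) or T497A TAC 1, 2 or 3 (0.061, 0.056 and 0.056). Without WT TAC 2 it was 0.25 (edgeR adjusted p = 0.0072). With library totals 6.64% of all genes had a called interaction above 0 and 32.2% below. Opa1 (0.51), Mfn2 (0.36), Pink1 (0.29) and Bnip3 (-1.12) kept their calls there, with edgeR adjusted p of 0.00018 to 0.031, and Bnip3l was called (-0.31, 0.034).

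Ratios of counts within a library do not depend on the scaling. The count of Opa1 was 2.04 ± 0.078 times that of Dnm1l in T497A TAC, 1.73 ± 0.12 in T497A sham, 1.52 ± 0.099 in WT TAC and 1.99 ± 0.052 in WT sham (SD, n = 3). Mfn2 to Dnm1l was 7.31 ± 0.19, 6.62 ± 0.60, 5.91 ± 0.27 and 7.42 ± 0.51 in the same 4 groups. Relative to the fission GTPase, both fusion genes were thus lower in each WT TAC library than in any library of T497A TAC or WT sham. Pink1 to Mfn2 was 0.595 ± 0.049, 0.923 ± 0.11, 0.464 ± 0.0012 and 0.681 ± 0.036, lowest in WT TAC without overlap. Bnip3 to Bnip3l, 2 receptors of 1 family, was 1.23 ± 0.090 in T497A TAC, 2.13 ± 0.48 in T497A sham, 1.53 ± 0.14 in WT TAC and 1.5 ± 0.033 in WT sham, and T497A TAC did not overlap any other group. With 3 libraries a group, an exact test of such a ratio cannot go below 0.1, and none was run.

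Relative to other mitochondrial transcripts, Mfn1 and Mfn2 in WT TAC stayed near their own WT sham position, and Opa1 lay below its own. A list of 20 other nuclear-encoded mitochondrial genes had 18 called lower and none higher in WT TAC against WT sham (median -0.76), among them Sdha (-1.15), a subunit of succinate dehydrogenase, and Hspd1 (-0.93), the matrix chaperonin. Set against the mean log2 count of these 20 genes in its own library, with the mean of WT sham at 0, Mfn2 was at -0.045 to 0.020 in WT TAC and Mfn1 at -0.058 to 0.035. Opa1 was at 0.016 to 0.053 in T497A TAC, -0.22 to -0.083 in T497A sham, -0.0999 to -0.071 in WT TAC and -0.019 to 0.034 in WT sham, so WT TAC lay below each WT sham library. Pink1 was at -0.33 to -0.068 in T497A TAC, 0.23 to 0.37 in T497A sham and -0.60 to -0.535 in WT TAC. Relative to these transcripts it was thus lower in both TAC groups than in WT sham (-0.0621 to 0.0345). WT TAC lay well apart, while the highest T497A TAC library lay next to the lowest WT sham library. Dnm1l (0.25 to 0.42), Fis1 (0.40 to 0.49), Bnip3l (0.61 to 0.71) and Fundc1 (0.23 to 0.56) were above 0 in WT TAC. Bnip3 was at -0.20 to -0.11 in T497A TAC, 0.16 to 0.78 in T497A sham and 0.55 to 0.88 in WT TAC.

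**Figure D3:**
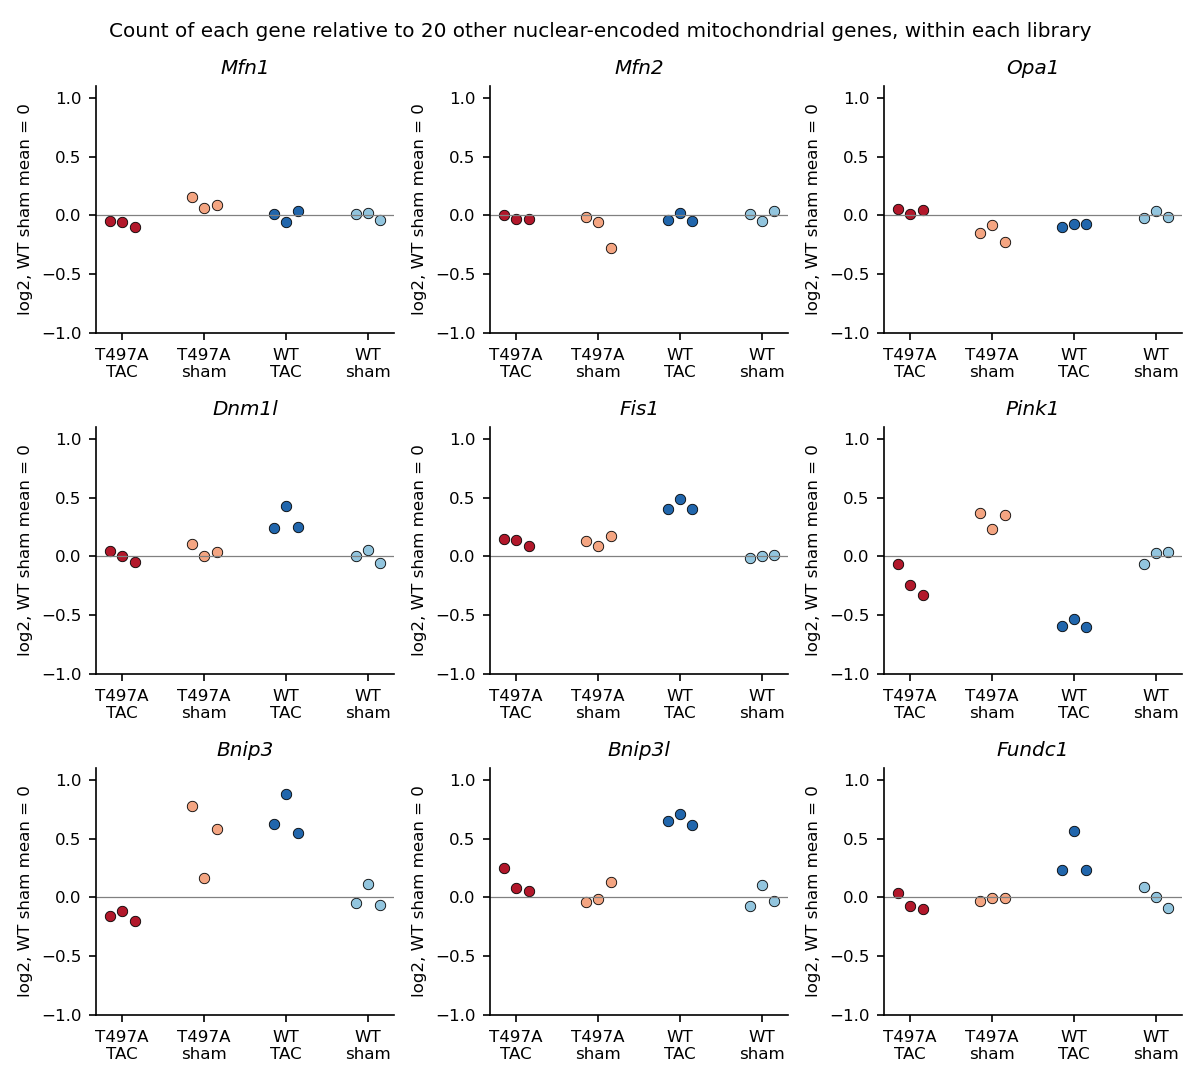
Log2 count of each member minus the mean log2 count of 20 other nuclear-encoded mitochondrial genes in the same library (vertical axis), with the WT sham mean set to 0. Points are the 12 libraries by group, and no error bars are drawn. Mfn2 lies at -0.045 to 0.020 in WT TAC while Pink1 lies at -0.60 to -0.535 there.

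Cell type markers also differed between the groups. In WT TAC, 7 of 8 ventricular cardiomyocyte markers were called lower than in WT sham (median -1.04), and 5 of 5 fibroblast and 5 of 5 macrophage markers higher (medians 1.08 and 1.49). Of 5 endothelial markers 3 were higher (median 0.30), and none of 4 adipocyte markers was called. Of 4 atrial markers tested 1, Nppa, was higher (4.875), while Myl7 (-0.59), Sln (-0.64) and Myl4 (0.030) were not called. Of 5 mural markers 2 were higher and 1 lower, 1 of 5 erythroid markers was higher and 1 of 3 Schwann cell markers lower. Over all genes 25.9% were called higher there and 24% lower. The macrophage genes summed to 146 to 161 CPM in T497A TAC, 108 to 125 in T497A sham, 201 to 348 in WT TAC and 102 to 118.5 in WT sham. In T497A TAC against T497A sham, 4 of 8 cardiomyocyte markers were lower, 1 of 5 fibroblast markers and 3 of 5 macrophage markers higher. There 3 of 4 atrial markers (median -3.60) and 3 of 4 adipocyte markers (median -3.71) were also lower, 1 atrial marker was higher, and 3 of 5 endothelial markers were higher (median 0.54). The atrial genes, Nppa among them, summed to 229.7 to 510 CPM in T497A TAC, 271 to 928 in T497A sham, 2534 to 2839 in WT TAC and 101 to 269.8 in WT sham. The adipocyte genes summed to 0.43 to 2.0, 3.5 to 15.3, 0.88 to 7.5 and 0.39 to 6.3 CPM in the same 4 groups, and the endothelial genes to 915 to 984, 636 to 727, 881 to 1071 and 807 to 839 CPM. Between the TAC groups 7 of 8 cardiomyocyte markers were higher in T497A, and all 5 fibroblast, all 5 macrophage, 1 atrial and 1 endothelial marker lower. Set against the mean of the 8 cardiomyocyte markers in the same way, Pink1 was still low in WT TAC (-0.40 to -0.33 from WT sham), while Mfn1 (0.15 to 0.23), Mfn2 (0.15 to 0.22) and Opa1 (0.11 to 0.13) were above the WT sham mean. The part of cell makeup in the members' changes was not tested. Among markers of other cell types, Bmp10, Retnlg, Ly6g, Hba-a2 and Plin1 were at 0 in at least 1 library.

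Partners of the members were counted in lists chosen by function. Over all genes, 24% were called lower and 25.9% higher in WT TAC against WT sham, and 11.4% lower and 12.9% higher in T497A TAC against T497A sham. In T497A TAC against WT TAC 17.8% were higher and 17.9% lower, and for the interaction 15.3% were above 0 and 14.2% below. With library totals the shares were 10.7% and 47.8% in WT, and 8.24% were higher and 38.8% lower in T497A TAC against WT TAC. For the interaction 6.64% were then above 0 and 32.2% below. Counts of each list are to be read against these shares. Of 20 fusion partners and OPA1-processing genes, 16 were called lower and none higher in WT TAC against WT sham (median -0.50, against 0.028 over all genes), including the prohibitin Phb (-0.97), the cristae-junction genes Immt (-0.79) and Chchd3 (-0.74), and Oma1 (-0.84), a protease that cleaves OPA1. With library totals 12 were lower and 2 higher. In T497A TAC against T497A sham, 2 were lower and 1, Msto1, higher (0.42). Msto1 was called lower in T497A sham than in WT sham (-0.29), though not with library totals (-0.24, edgeR adjusted p = 0.11). In T497A TAC against WT sham 3 of the 20 were lower and 0 higher. After TAC 15 of the 20 were higher in T497A than in WT and none lower, with Phb at 0.75 and Immt at 0.62, and with library totals 6 were higher and 2 lower. For the interaction 13 were above 0 and none below, led by Phb (1.11).

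Of 12 fission adaptors and helpers, 11 were tested, and in WT TAC 6 were lower and 3 higher than in WT sham. Lower were the DRP1 receptors Mief2 (-0.70) and Mff (-0.40), the fission regulator Mtfr1 (-0.74) and Mtfp1 (-1.14), an inner membrane fission gene. With library totals the split turned to 3 lower and 6 higher, and Mff was not called (-0.073, edgeR adjusted p = 0.25). Between the TAC groups 4 were higher in T497A, including Mtfr1 (0.47) and Mief2 (0.41), and 2 lower, the actin-assembly genes Inf2 (-0.64) and Spire1 (-0.62). The share lower was near the 17.9% over all genes. With library totals 2 were higher and 5 lower, and Mief2 was not called (0.165, edgeR adjusted p = 0.055). In T497A TAC against T497A sham, 2 of 11 were lower (Mtfr1l at -0.33 and Mff at -0.25) and 1 higher, near the shares over all genes.

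Of 18 genes of the PINK1 and parkin pathway, 13 were lower and none higher in WT TAC against WT sham (median -0.28), among them Rhot2 (-0.92), which encodes a mitochondrial motor adaptor targeted by parkin, Vdac1 (-0.78), the outer membrane porin, and Usp15 (-0.39), a deubiquitinase. With library totals this turned to 3 lower and 6 higher, and Usp15 was not called (-0.059, edgeR adjusted p = 0.34). After TAC 7 were higher in T497A than in WT and none lower, with Rhot2 at 0.57 and Vdac1 at 0.54, and with library totals 2 were higher and 3 lower. In T497A TAC against T497A sham 4 were lower and none higher. The interaction was above 0 for 11 and below for none, and for 1 and 2 genes with library totals.

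Of 13 other mitophagy receptors and cargo adaptors, 7 were lower and none higher in WT TAC against WT sham, including Nipsnap2 (-1.24), a matrix protein that marks damaged mitochondria, Calcoco1 (-0.86) and Bcl2l13 (-0.65). With library totals 5 were lower and 6 higher. Nipsnap2 (0.97) and Calcoco1 (0.71) were among 6 higher and none lower in T497A TAC against WT TAC, which became 4 higher and 3 lower with library totals. In T497A TAC against T497A sham 5 were lower, among them Bcl2l1 (-1.01), an inhibitor of cell death, which was also higher in T497A sham than in WT sham (1.21). Of 25 genes of autophagosome formation, 15 were lower and 2 higher in WT TAC against WT sham, with the LC3 genes Map1lc3a (-0.62) and Map1lc3b (-0.47) lower. With library totals 2 were lower and 10 higher. In T497A TAC against T497A sham 5 were lower and 2 higher, with Atg13 (-0.59), a subunit of the initiating kinase complex, lower and Wipi1 (0.38) higher. In T497A sham against WT sham these 2 differed the other way, Atg13 higher (0.38) and Wipi1 lower (-0.26). None of the 25 genes was called in T497A TAC against WT sham. Between the TAC groups 9 were higher in T497A and 2 lower, and 2 and 9 with library totals.

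Of 18 hypoxia-inducible factor targets, 5 were lower and 3 higher in WT TAC against WT sham, near the 24% and 25.9% of all genes, and 6 lower and 2 higher in T497A TAC against T497A sham, where 11.4% of all genes were lower and 12.9% higher. Egln1, an oxygen sensor, fell in both (-0.84 in WT and -0.71 in T497A), as did the hexokinase Hk2 (-0.79 and -0.48). For the interaction 7 were below 0 and 1 above, where 14.2% of all genes were below and 15.3% above. Among the 7 were Ndrg1 (-0.42), Ldha (-0.30), a lactate dehydrogenase subunit, and Egln3 (-0.93), with Bnip3 at -0.82 outside this list. With library totals 10 were below 0 and none above, against 32.2% and 6.64% of all genes. In T497A sham against WT sham, the 7 lists had 0 to 2 genes called each, among them Phb (-0.36) and Ndrg1 (0.25). Over all genes 2.99% were called higher there and 2.8% lower.

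**Figure D4:**
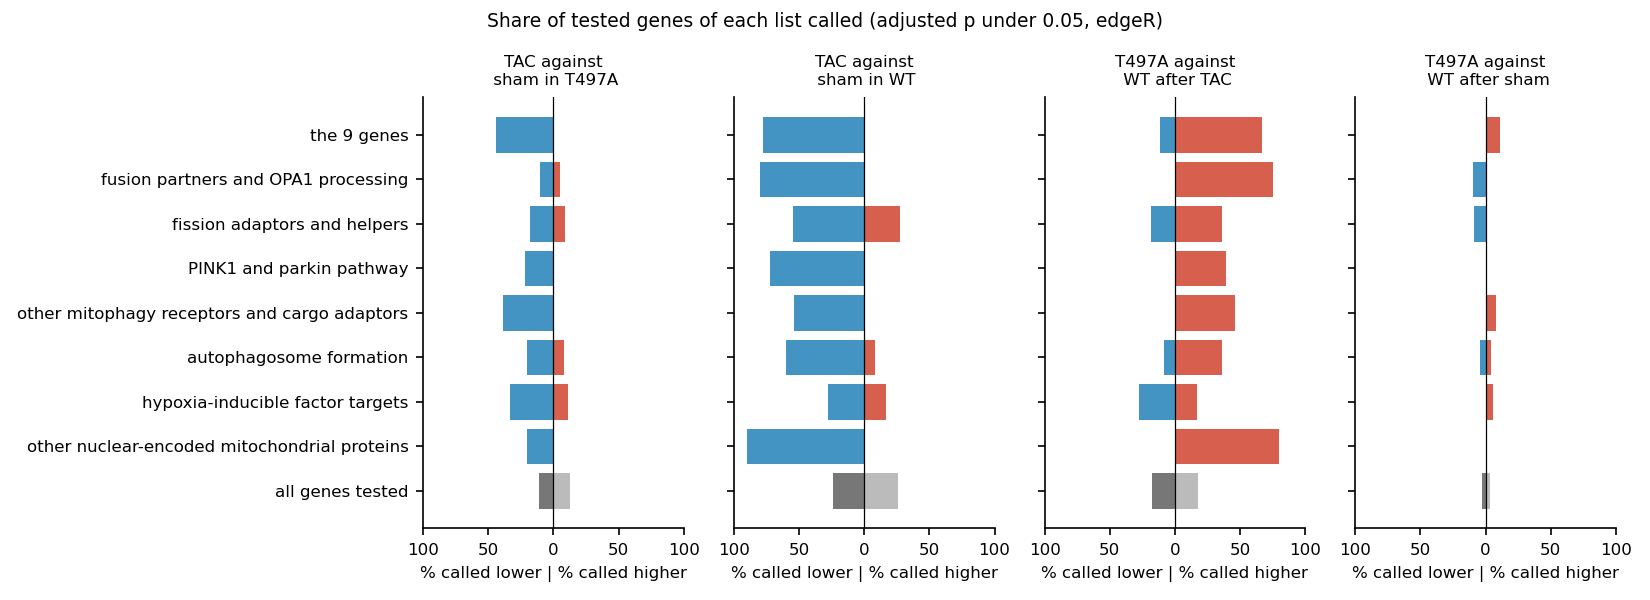
Share of the tested genes of each list called higher or lower (horizontal axis, percent) in the compared groups, from edgeR with TMM scaling, beside the share over all 17699 genes. In WT TAC against WT sham, 16 of 20 fusion partners and 13 of 18 PINK1 and parkin genes are called lower and none higher.

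Genes whose log2 CPM over the 12 libraries ran most like each member were sought among 8582 protein-coding genes. The 12 libraries share 4 groups, so the coefficients describe mainly the group means, and no p is given. Map1lc3b ran closest to Mfn1 (Pearson r = 0.995) and Nudt3 next (0.993). Abcc9 (0.995) and Prkaca (0.992) ran closest to Mfn2, Ubr3 (0.995) and Uqcc1 (0.993) to Opa1, Vdac3 (0.994) and Ppp1cb (0.991) to Dnm1l, and Cog6 (0.984) and Cox7c (0.983) to Fis1. For Pink1 these were Efcab2 and Fbxo31 (both 0.995), for Bnip3 Atg13 and Clk4 (both 0.955), for Fundc1 Tmem41b (0.977) and Tex2 (0.959), and for Bnip3l Mark1 (0.831) and Pheta1 (0.788). Among the members, Mfn2 and Opa1 had r = 0.978 and Mfn1 and Dnm1l 0.981, whereas Bnip3 had 0.0054 with Opa1 and 0.477 with Dnm1l.

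The members lie apart in the genome except for 2 pairs on shared chromosomes. By GENCODE M21 on GRCm38, Mfn1 is at chr3:32529465-32579239 (plus strand), Mfn2 at chr4:147873599-147904704 (minus), Pink1 at chr4:138313409-138326307 (minus), Fis1 at chr5:136953275-136966234 (plus), Bnip3 at chr7:138890836-138909519 (minus), Bnip3l at chr14:66985239-67008877 (minus), Dnm1l at chr16:16312230-16358959 (minus), Opa1 at chr16:29579334-29654884 (plus) and Fundc1 at chrX:17556564-17572325 (minus). Exons of Bnip3 share 504 bases (22.3% of its exon length) with the antisense gene Gm45507, which had a count of 0, and exons of Dnm1l share 243 bases with the antisense gene Gm49521, which had 48 counts over the 12 libraries against 112757 for Dnm1l. The strand setting of the counting is not given in the sources used here. Whether reads in these stretches were assigned by strand is thus not known. Exons of Pink1 share 110 bases with Gm27646 and 69 with Mir7019, both on its own strand and with counts of 0. The pseudogene Bnip3l-ps had 18 to 40 counts a library, and reads that Bnip3l shares with it are uncertain.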

How the data were processed

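Raw read counts per gene, whole numbers in 12 columns, were used as deposited by the authors, and all columns were used. Per the labels, RNA was purified from left ventricle with RNeasy, the KAPA mRNA HyperPrep kit gave the libraries, and a NextSeq2000 read single ends. Per the submitters' processing notes, Trim Galore 0.6.4, STAR 2.7.3a, featureCounts (Subread 1.6.3) and limma 3.50.3 were used, and the mm10 and GRCh38 builds are named without a role. For annotation release, strand setting and multi-mapping reads, the sources used here give nothing.

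Groups came from the labels, which give 1 batch date for all samples. Columns were matched to samples by genotype, surgery and number, with 2 T497A sham columns that lack the genotype's first letter. Depth was 58932759 to 72594085 counts per library, and the chi-square per degree of freedom between libraries of a group was 10.6 to 138, above counting error. In R 4.3.3, edgeR 4.0.16 was run on 17699 of 55401 genes (filterByExpr, TMM, robust quasi-likelihood, 1 mean per group over 12 libraries), with Benjamini-Hochberg adjustment and a call at 0.05. CPM carry TMM factors, with a prior count of 2 on the log2 scale. Alternatives used DESeq2 1.42.0, limma 3.58.1, other scalings and filters, a replicate block and single libraries left out. The fit without the T497A sham group was chosen after seeing the data. IDs matched GENCODE M21 for 55141 genes and not for 260. Exon lengths are from M21, and promoters from RefSeq on GRCm38.p6.

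The members and lists were chosen with earlier results of these data known. Named are all members, Prkca, up to 4 called genes with the smallest p per list and comparison (mean of at least 1 CPM), and for each member the 2 genes most like it (mean of at least 10 CPM). Xist and Ddx3y are given as values.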

Additional observations from a re-analysis of the deposited data

Results flagged for a closer look

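The response to TAC differed between the genotypes by the interaction test of edgeR for 5 members. T497A minus WT, in log2 units, it was 0.808 for Opa1, 0.658 for Mfn2, 0.587 for Pink1, 0.367 for Mfn1 and -0.817 for Bnip3. Pink1 and Mfn1 were lower in TAC than in sham libraries of both genotypes, by less in T497A. Opa1 and Mfn2 were lower in WT and not called in T497A. Bnip3 was lower in T497A (-0.85), at 54.8 to 56.6 CPM in T497A TAC against 79.3 to 115 CPM in T497A sham, and was not called in WT (-0.029). The T497A sham group alone lacks Y-linked transcripts, and its part in these differences was not tested. Against WT sham, Bnip3 in T497A TAC was lower by a smaller amount (-0.36). Pink1 was lower in that comparison too (-0.41), and Mfn1 was not called (-0.27, edgeR adjusted p = 0.058). The interaction of Mfn1 lost its call in 9 of 20 alternatives.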

How the results depend on the processing

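Over 1341 values of members under alternatives, 1235 stayed on the same side of the threshold, 55 lost the call, 45 gained it and 6 turned with a call. Of the 1235, 31 changed sign while called under neither setting, 7 of them with library totals and 22 with a library left out, among them Fundc1 for T497A against WT after TAC (-0.128) and the interaction of Dnm1l (-0.107), Fis1 (-0.194) and Fundc1 (-0.125), all 4 with library totals. The 6 that turned with a call came with library totals in place of TMM factors, a scaling that moved the median of all genes by 0.333 in WT and by -0.251 between TAC groups: Fis1 0.0531, Bnip3 0.304 and Bnip3l 0.276 for TAC against sham in WT, Dnm1l -0.0455 and Fis1 -0.0504 for T497A against WT after TAC, and Bnip3l 0.238 for WT TAC against T497A sham. For T497A against WT after sham, 1 member was called, 2 with library totals, the DESeq2 test, limma-voom, no filter, the stricter filter or mitochondrial, haemoglobin and rRNA genes removed, and 0 to 3 with a library left out. There 1024 genes were called, 1697 with DESeq2 and 505 to 1607 with a library left out. For T497A TAC against WT sham, 4 members were called, 1 with library totals, 7 with limma-voom, 7 with only the 2 groups compared and 1 to 7 with a library left out. There 1773 genes were called, 2661 with DESeq2, 3971 with limma-voom, 2992 with only the 2 groups and 623 to 2812 with a library left out. For TAC against sham in T497A, 4315 genes were called, and 2840 (without T497A TAC 2) to 5152 with a library left out.

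The labels do not say that replicate numbers pair the samples. Deviations of same-numbered libraries correlated at -0.113 to 0.0742 over 18 pairs, which cannot decide the question with 3 libraries a group. With the replicate number as a block, 1 member was called in T497A TAC against WT sham in place of 4, and the other member counts did not change, with 7 for TAC against sham in WT and 5 for the interaction. The number of all genes called with the block is not given here, so the drop cannot be read as particular to the members. The causes of these shifts were not tested. Depth was ample for every member (mean of at least 24.3 CPM), and 3 libraries a group limit the precision.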
